A study of Mus musculus with 4 samples.

Results

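Proteoglycans are proteins that carry long sulfated sugar chains, and 42 genes for their core proteins and for the enzymes that build and edit those chains are described here. They were chosen by symbol from a list of chondroitin sulfate and heparan sulfate core proteins, chain synthesis and sulfation enzymes, 1 hyaluronan synthase and 1 hyaluronan link protein. All 42 were found among the 23874 genes of the deposited count table, and 40 had enough counts to be tested. RNA was sequenced from mouse engineered neural tissue, in which neurospheres (clusters that neural stem cells form in suspension) had been set in Matrigel, a basement membrane gel, under medium with N2, B27 and 20 ng/ml recombinant human basic fibroblast growth factor. The EF group received electric field stimulation at 150 mV/mm, in daily sessions of 30 min over 3 days, and was then cultured for 7 more days. The noEF group went without stimulation, and the labels give both groups the same cell type, gel and medium. The sample titles of both groups say Day7, but no other culture time is stated for noEF. Whether the groups were cultured for the same total time is therefore not known. The sample labels call both groups engineered tissue, whereas the series design names a neural stem cell suspension as control, so the identity of noEF rests on the sample labels. The labels name no mouse strain, sex or age. Each group is represented by 2 libraries, although the labels state 3 replicates per group, and nothing says whether these came from separate cultures. P-values therefore measure the spread between these libraries, which may be technical.

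Each proteoglycan is made in steps. A xylosyltransferase puts the first sugar on a serine of the core protein, a short linker follows, and the chain then grows either as heparan sulfate, through exostosin enzymes, or as chondroitin sulfate, through chondroitin synthases. Sulfotransferases decorate the growing chain, and the pattern of sulfate groups decides which growth factors, guidance cues and receptors bind to it. In neural tissue, chondroitin sulfate proteoglycans surround progenitors and neurons and are known as barriers to axon growth after spinal cord injury, while glypicans and syndecans carry heparan sulfate at the cell surface and act as co-receptors for fibroblast growth factors, Wnt proteins and synaptic organisers.

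Total counts per library ran from 33748880 to 34554537. The stem cell label was checked on markers: Sox2 was at 291 to 380 CPM (counts scaled to library size with TMM factors). Of the same list, Nes was at 115 to 135, Vim at 2176 to 2616, Pax6 at 26.0 to 31.0 and Hes5 at 4.79 to 7.10 CPM. Rbfox3, a marker of mature neurons, stayed at or below 1.86 CPM, but the neuronal marker Map2 was at 411 to 529 CPM. The astrocyte marker Slc1a3 (2484 to 2992 CPM) and the oligodendrocyte lineage marker Olig1 (1950 to 2302 CPM) were also high. The markers thus do not settle the label. All 6 markers of dividing cells were higher in EF (summed level 748 to 816 CPM in EF, 430 to 435 CPM in noEF). Of 8 astrocyte markers, 4 were lower (summed level of all 8 5302 to 5570 CPM in EF, 6102 to 6322 CPM in noEF). Of 8 oligodendrocyte lineage markers, 2 were lower, with sums that overlapped between groups. Of 6 stem and progenitor markers 1 was lower, Fabp7, at 2281 and 2449 CPM in EF and 3553 and 3157 CPM in noEF. The summed level of these 6 was 4917 to 5222 CPM in EF and 6288 to 6682 CPM in noEF. No neuronal marker passed. Of 6 microglia and macrophage markers, Aif1, Cx3cr1, Csf1r and Ptprc were at 0 in every library, while Cd68 had 110 to 216 counts and P2ry12 8 to 36 (summed level 3.31 and 4.76 CPM in EF, 6.91 and 6.78 CPM in noEF, none called). Of 6 endothelial markers, Cdh5 alone was at 0 in every library, with summed levels of 2.35 and 1.86 CPM in EF and 1.23 and 1.04 CPM in noEF and none called. How far such shifts in cell make-up enter the differences below was not tested, and in bulk RNA fewer cells of a type cannot be told apart from less RNA per cell.

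Of the 40 tested genes, 5 were higher in EF and 1 was lower by edgeR's quasi-likelihood test at a Benjamini-Hochberg adjusted p under 0.05. In simulated data where each gene had its own spread, this test exceeded its false call rate. Calls near the threshold are therefore less certain. The higher genes were the glypican gene Gpc4, the syndecan gene Sdc3, the xylosyltransferase gene Xylt1 and 2 heparan sulfate modifying enzyme genes, Ndst1 and Hs3st2, and the lower gene was Sdc4, another syndecan. That is 12.5% higher and 2.5% lower, beside 3.83% higher and 4.99% lower among all 14263 tested genes (8.82% called in either direction). The genes were chosen with earlier results of these data known. These shares and the set-wide values below are therefore descriptive and test nothing about the set. None of the 5 tested chondroitin sulfate core proteins and none of the 6 chondroitin chain enzymes passed in the reported edgeR fit, by DESeq2's Wald test or by limma-voom. In 11 genes, 0 calls cannot be told apart from the 8.82% called among all tested genes. Of these 11 genes 2 (Ptprz1 and Chsy3) had an unadjusted p under 0.05 by edgeR. Across the 40 genes, 34 had a log2 fold change above 0 (EF minus noEF) and the median was 0.19, against 0.01 for all tested genes. In 24 genes (60.0%) both EF libraries lay above both noEF libraries, and in 3 (7.5%) both lay below, where all tested genes gave 27.6% and 26.8%. An unadjusted p under 0.05 was reached by 16 of the 40 and by 23.8% of all tested genes. When library totals replaced TMM, the median of the 40 genes was 0.28 and that of all tested genes 0.095, so both rose together. In that fit 10 of the 40 were called higher and 0 lower, beside 1138 higher and 505 lower among all genes. The median was smaller when each library's trend over transcript length and GC content was removed (0.10, 30 of 40 above 0). All tested genes then had a median of -0.01. Without EF replicate 1 the only called gene of the 40 was Gpc4, as higher.

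**Figure D1:**
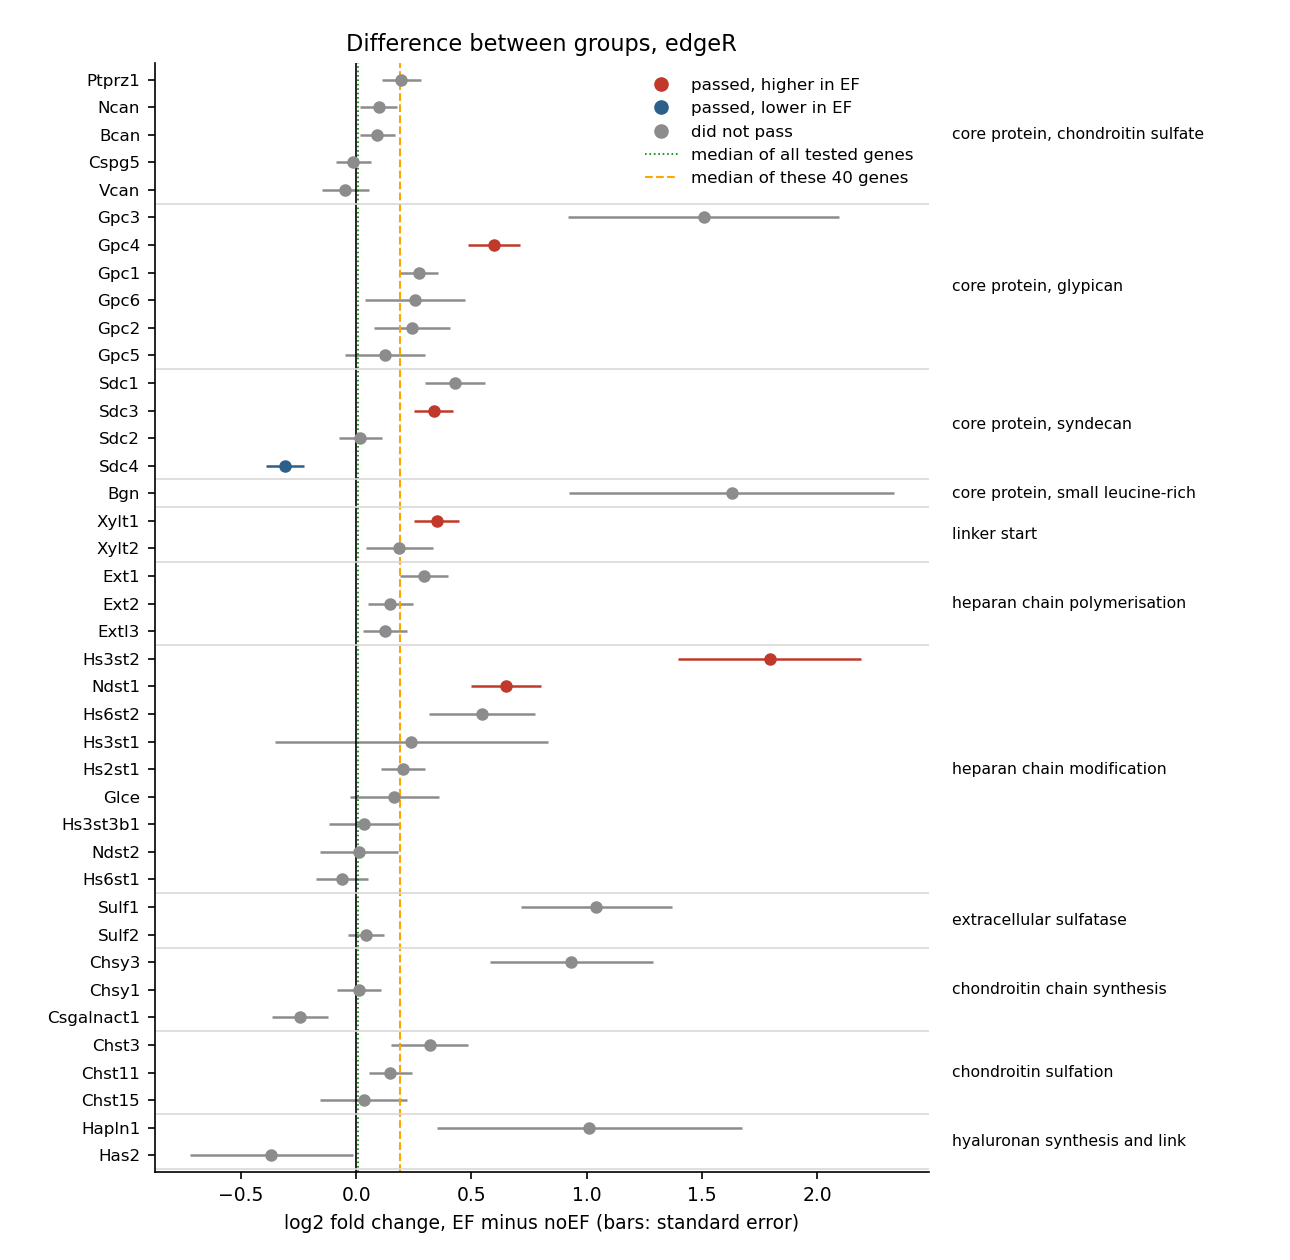
Log2 fold change of each tested gene (EF minus noEF, x axis) with its standard error, grouped by role on the y axis. Red points passed the test as higher in EF and the blue point as lower; the dashed line marks the median of the 40 genes at 0.19 and the dotted line the median of all tested genes at 0.01.

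The level of a gene was compared with that of others per kilobase of exon (CPM per kb). The highest levels were those of 4 chondroitin sulfate core proteins. Bcan, which encodes brevican of the perineuronal and perivascular matrix, averaged 287 CPM per kb in EF and 269 in noEF. Ptprz1, a receptor tyrosine phosphatase whose shed ectodomain is phosphacan, averaged 176 and 153, Ncan (neurocan) 134 and 125, and Cspg5 (neuroglycan C) 104 and 105 CPM per kb. Vcan and Acan, of the same class, were far lower, Vcan at 4.78 and 4.93 CPM per kb and Acan at 0.0209 in EF and 0 in noEF. Together the chondroitin sulfate cores made up 74.8% to 75.7% of the summed core protein level in each library, so this share was nearly the same in both groups. Syndecans held 18.2% and 18.7% in EF and 19.5% and 19.7% in noEF, and glypicans 6.08% and 6.45% in EF and 5.02% and 5.25% in noEF. Small leucine-rich proteoglycans took at most 0.0338% in each library. Among the enzymes, the sulfatase gene Sulf2 stood at 101 CPM per kb in EF, above the chondroitin 4-O-sulfotransferase gene Chst11 (28.8) and the xylosyltransferase gene Xylt1 (19.8).

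**Figure D2:**
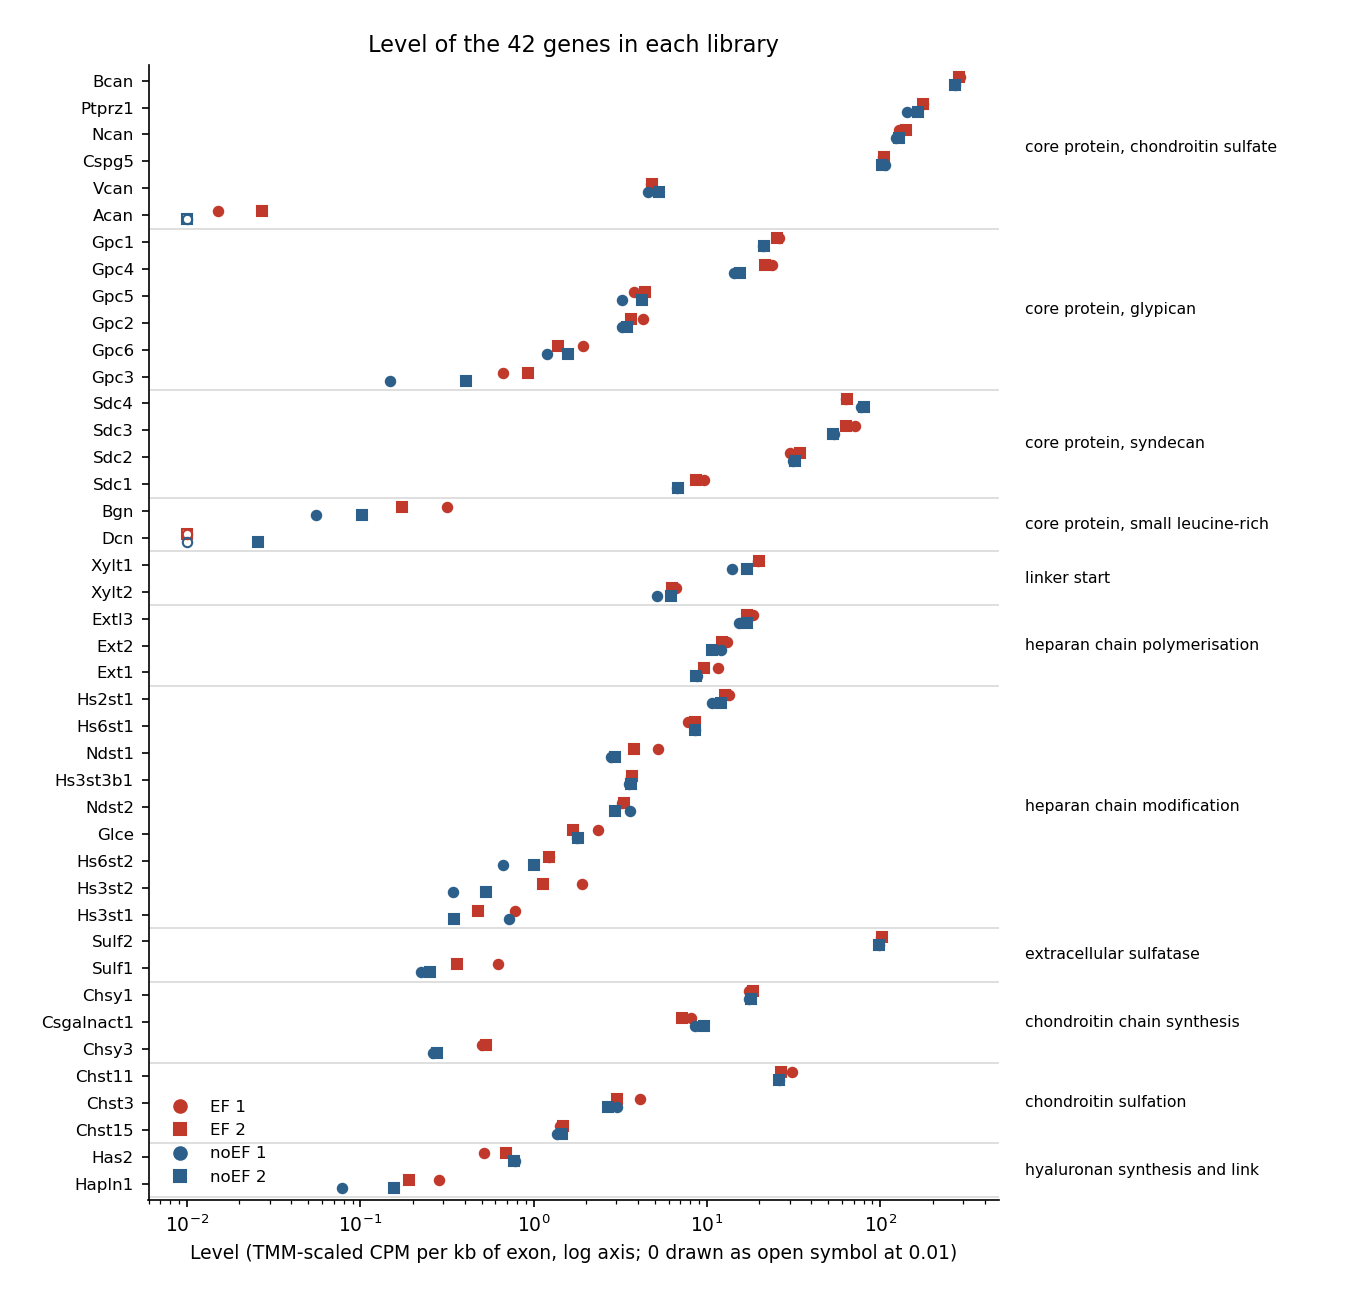
Level of all 42 genes in each library, as TMM-scaled CPM per kilobase of exon on a log axis, grouped by role; red symbols are EF, blue symbols noEF, circles replicate 1 and squares replicate 2. Bcan, Ptprz1, Ncan, Cspg5, Sulf2, Sdc4 and Sdc3 lie farthest to the right, while Acan and Dcn were at 0 in at least 2 libraries (open symbols).

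Among the chondroitin sulfate core proteins, values in CPM differed little between groups. Ptprz1 had 2509 and 2499 CPM in EF against 2030 and 2340 in noEF (replicates 1 and 2 in turn, here and below), so the EF libraries were above both noEF libraries but noEF 2 was nearer to EF than to noEF 1. Its log2 fold change was 0.20 (SE 0.08, edgeR adjusted p = 0.170). It passed as higher with library totals (0.28, edgeR adjusted p = 0.0415) and without noEF 2 (0.30, edgeR adjusted p = 0.0407). Bcan was at 1176 and 1158 against 1094 and 1095 CPM, and Ncan at 917 and 1007 against 883 and 916 CPM. Their log2 fold changes were 0.09 and 0.10, neither past the threshold (edgeR adjusted p = 0.515 and 0.516). Cspg5 and Vcan, the gene of the large hyaluronan-binding proteoglycan versican, had overlapping groups, with log2 fold changes of -0.01 and -0.05 that turned above 0 when library totals replaced TMM. Vcan had 69.0 and 69.2 CPM in EF and 65.9 and 76.7 in noEF. Acan, which encodes aggrecan of mature perineuronal nets, had 4 and 7 counts in EF and 0 in both noEF libraries, too few to be tested. Set against a limit of 3 counts over the noEF group, the 11 counts of the EF group are 3.44-fold higher after scaling. This figure allows for counting error in noEF only. It takes the EF counts as exact, so it is not a lower bound.

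Ptprz1 has a soluble ligand, pleiotrophin, which binds its chondroitin sulfate chains and also binds syndecan 3. The pleiotrophin gene Ptn was at 2759 and 2712 CPM in EF and 2146 and 2246 in noEF, 1.25-fold higher (log2 fold change 0.32, SE 0.08, edgeR adjusted p = 0.0195), with no overlap between groups. The related ligand gene Mdk (midkine) had at most 16 counts in a library. Ptn missed the threshold with the replicate number as a block (edgeR adjusted p = 0.0812) and without EF 1, EF 2 or noEF 1 (adjusted p = 0.207, 0.0929 and 0.0708).

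Of the 4 syndecans, transmembrane heparan sulfate carriers, 2 were called, Sdc3 as higher and Sdc4 as lower. Sdc3 (ENSMUSG00000025743, GRCm38 chromosome 4, 130792537 to 130826319, plus strand), the neural syndecan, had 430 and 381 CPM in EF against 322 and 320 in noEF. Both EF libraries were above noEF, with EF 1 the higher, and the rise was 1.26-fold (log2 fold change 0.34, SE 0.09, edgeR adjusted p = 0.0244). Sdc4 (ENSMUSG00000017009, chromosome 2, 164424247 to 164443887, minus strand), a component of focal adhesions, had 162 and 163 CPM in EF and 197 and 205 in noEF. Its groups did not overlap, and it fell by 0.31 on the log2 scale (SE 0.08, edgeR adjusted p = 0.0312). The ratio of Sdc3 to Sdc4 counts within a library, which no scaling of libraries changes, was 2.65 and 2.34 in EF and 1.63 and 1.56 in noEF. Summed over the 4 syndecans the level per kilobase was 175 and 170 in EF and 169 and 173 in noEF, so these totals overlapped. Without division by exon length the sum was 735 and 697 CPM in EF and 656 and 665 CPM in noEF, with both EF libraries above noEF. Whether the syndecan total differed thus depends on the weighting. The ratio above pairs the 2 genes called in opposite directions, so its separation between groups follows from those calls and adds no support to them. Sdc1, the syndecan of epithelia and progenitors, had 36.6 and 32.7 against 25.5 and 26.0 CPM, a log2 fold change of 0.43 (SE 0.13) that missed the threshold (edgeR adjusted p = 0.0537). Sdc1 passed under 4 of the 12 alternatives, with edgeR adjusted p-values from 0.0183 to 0.0442. Sdc2 overlapped between groups at 106 and 121 against 111 and 113 CPM. The call of Sdc3 was lost with the replicate block (edgeR adjusted p = 0.0619) and without EF 1 (0.302). Sdc4 was below 0 under all 12 alternatives but lost its call in 7 of them, among them each fit that left out 1 library (edgeR adjusted p = 0.166 without EF 1, 0.107 without EF 2, 0.0504 without noEF 1 and 0.0846 without noEF 2), library totals (0.105), the replicate block (0.0897) and the removed length and GC trend (0.0534).

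Glypicans are held in the membrane by a lipid anchor, and glypicans 4 and 6 released by astrocytes are known to promote excitatory synapses. Gpc4 (ENSMUSG00000031119, chromosome X, 52053021 to 52165252, minus strand) had 63.0 and 56.9 CPM in EF and 38.0 and 41.2 in noEF. The groups were well separated, with a 1.51-fold rise (log2 fold change 0.60, SE 0.11, edgeR adjusted p = 0.00436). It passed under all 12 alternatives, with log2 fold changes from 0.52 to 0.68 and edgeR, DESeq2 or limma adjusted p-values from 1.38e-05 to 0.0478. Gpc1, the most abundant glypican gene per kilobase, had 134 and 130 against 108 and 111 CPM. Its groups did not overlap either, yet its log2 fold change of 0.27 (SE 0.09) missed the threshold (edgeR adjusted p = 0.0597). It passed with library totals, with no filter and with the length and GC trend removed (edgeR adjusted p = 0.0141, 0.0321 and 0.0335). Exons of Gpc1 share 977 bases with Ankmy1 on the opposite strand, and no source used here says whether counting used strand. Gpc3 was rare, with 64 and 87 counts in EF and 13 and 37 in noEF, and its log2 fold change of 1.51 (SE 0.59) did not pass (edgeR adjusted p = 0.127). With 1 library left out it ran from 0.96 without noEF 1 to 2.41 without noEF 2, where it passed (edgeR adjusted p = 0.0203). The other glypican genes, Gpc2, Gpc5 and Gpc6, had log2 fold changes of 0.24, 0.12 and 0.26 with edgeR adjusted p-values from 0.408 to 0.723. Gpc5 and Gpc6 overlapped between groups, and Gpc2 shares 2376 exon bases with the same-strand model Gm43720. All 6 glypicans had a value above 0, also with DESeq2 size factors or library totals. In the reported fit 1 passed, and with library totals Gpc1 passed as well. Gpc5 was at -0.06 without noEF 1, and Gpc6 was at about 0 without EF 1. The summed glypican level per kilobase was 60.4 and 56.9 in EF against 43.1 and 46.6 in noEF.

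Small leucine-rich proteoglycans bind collagen in connective tissue, and the 2 among the 42 genes, Bgn and Dcn, were near the limit of detection. In the wider list described below, Ogn of the same class had 205 and 162 counts in EF and 73 and 82 in noEF. Prelp had 133 and 185 counts in EF and 237 and 279 in noEF. Its log2 fold change of -0.79 (SE 0.25) did not pass (edgeR adjusted p = 0.0679). Bgn (biglycan) had 69 and 37 counts in EF and 11 and 21 in noEF, a log2 fold change of 1.63 (SE 0.70) that did not pass (edgeR adjusted p = 0.171). Dcn (decorin) had 5 counts in noEF 2 and 0 in the other libraries. Of 6 fibroblast and meningeal markers, Lum and Postn were at 0 in every library and the summed level was 0.516 to 0.700 CPM in EF and 0.387 to 0.799 CPM in noEF, with groups that overlapped.

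Chain synthesis begins with xylosylation. Xylt1 (ENSMUSG00000030657, chromosome 7, 117380979 to 117673580, plus strand) encodes the xylosyltransferase that starts both chain types. It had 189 and 194 CPM in EF against 135 and 165 in noEF, where replicate 1 was well below replicate 2. The rise was 1.27-fold (log2 fold change 0.35, SE 0.10, edgeR adjusted p = 0.0391). Its call was lost with the length and GC trend removed (adjusted p = 0.0643) and without EF 1 (0.0894), EF 2 (0.108) or noEF 1, where the log2 fold change was 0.22 (adjusted p = 0.313). The paralog Xylt2 was at 26.3 and 25.0 against 20.4 and 24.6 CPM, with a log2 fold change of 0.19 (edgeR adjusted p = 0.476).

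The polymerases of heparan sulfate did not pass in the reported fit. Ext1 and Ext2, which form the chain-extending complex, had log2 fold changes of 0.29 and 0.15 (edgeR adjusted p = 0.0954 and 0.389), and Extl3, which adds the first heparan-specific sugar, had 0.13 (0.461). Ext1 was at 93.8 and 78.0 CPM in EF and 70.4 and 69.7 in noEF, so EF 1 stood apart from the other 3 libraries. It passed with library totals, with no filter and without EF 2 (edgeR adjusted p = 0.0269, 0.0337 and 0.0412).

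Enzymes that modify the heparan chain gave the largest rise. Hs3st2 (ENSMUSG00000046321, chromosome 7, 121391859 to 121501770, plus strand), a 3-O-sulfotransferase found mainly in brain that adds a late and rare sulfate group, had 5.77 and 3.44 CPM in EF against 1.04 and 1.61 in noEF. These were 206 and 120 counts against 34 and 54, so every EF library had more than each noEF library, and EF 1 the most. It was 3.47-fold higher (log2 fold change 1.79, SE 0.40, edgeR adjusted p = 0.0121). Ndst1 (ENSMUSG00000054008, chromosome 18, 60684494 to 60748650, minus strand) encodes the N-deacetylase and N-sulfotransferase that makes the first modification, on which later ones depend. It had 43.0 and 31.4 CPM in EF and 23.0 and 24.4 in noEF, again highest in EF 1, and was 1.57-fold higher (log2 fold change 0.65, SE 0.15, edgeR adjusted p = 0.0181). Both genes passed in 11 of 12 alternatives and failed without EF 1, where Hs3st2 was at 1.37 (edgeR adjusted p = 0.157) and Ndst1 at 0.40 (0.272). Ndst2, the related enzyme gene, overlapped between groups at 14.8 and 15.0 against 16.2 and 13.3 CPM.

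Of the remaining modifying enzymes none passed in the reported fit. The 6-O-sulfotransferase gene Hs6st2 had 9.52 and 9.57 CPM in EF and 5.19 and 7.88 in noEF (log2 fold change 0.55, SE 0.23, edgeR adjusted p = 0.163, and 0.88 with adjusted p = 0.0295 without noEF 2), while its more abundant paralog Hs6st1 was at 43.3 to 47.4 CPM in the 4 libraries. The 2-O-sulfotransferase gene Hs2st1 was at 109 and 105 against 87.2 and 98.7 CPM (log2 fold change 0.20, edgeR adjusted p = 0.205). The epimerase gene Glce and the 3-O-sulfotransferase genes Hs3st1 and Hs3st3b1 had log2 fold changes of 0.17, 0.24 and 0.04, with edgeR adjusted p-values of 0.658, 0.859 and 0.921. Within the 3-O-sulfotransferases measured here, the most abundant gene per kilobase was Hs3st3b1 at 3.66 and 3.57 CPM per kb, and Hs3st2 averaged 1.51 in EF and 0.435 in noEF.

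The extracellular sulfatases trim 6-O-sulfates from finished heparan chains and so tune growth factor signalling. Sulf2 was among the most abundant of all 42 genes and close to equal in the groups, at 591 and 596 against 578 and 573 CPM (log2 fold change 0.04, SE 0.08, edgeR adjusted p = 0.788). Its exons share 154 bases with Ncoa3 on the opposite strand. Sulf1 was low, with 250 and 142 counts in EF and 82 and 96 in noEF, and its log2 fold change of 1.04 (SE 0.33) missed the threshold (edgeR adjusted p = 0.0595). Without EF 1 it was at 0.60. It passed with library totals, with no filter, without EF 2 and without noEF 2 (edgeR adjusted p = 0.0324, 0.0123, 0.0158 and 0.0402).

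Chondroitin chain enzymes showed no called difference. Chsy3, a chondroitin synthase gene of low level, had 3.61 and 3.84 CPM in EF and 1.91 and 1.99 in noEF, with clear separation of the libraries but few counts (129 and 134 against 62 and 67). It missed the threshold at 0.93 on the log2 scale (SE 0.35, edgeR adjusted p = 0.116). The main synthase gene Chsy1 was at 72.9 and 76.6 against 72.9 and 75.3 CPM. Csgalnact1, whose product starts the chondroitin chain, was below noEF in both EF libraries, at 41.3 and 36.6 against 43.1 and 49.2 CPM (log2 fold change -0.24, SE 0.12, edgeR adjusted p = 0.249). Chst11, Chst3 and Chst15, which encode enzymes of 4-O-, 6-O- and 4,6-di-O-sulfation in that order, had log2 fold changes of 0.15, 0.32 and 0.03 and edgeR adjusted p-values of 0.353, 0.266 and 0.945. Chst3 had 26.6 CPM in EF 1 and 17.3 to 19.7 CPM in the other 3 libraries.

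Hyaluronan, the unsulfated sugar to which brevican, neurocan and versican bind, was represented by its synthase gene Has2 and by Hapln1, which encodes a link protein that fixes proteoglycans to it. Both were rare. Has2 had 78 and 102 counts in EF and 108 and 110 in noEF (log2 fold change -0.37, SE 0.35), and Hapln1 had 60 and 39 against 15 and 31 (1.01, SE 0.66), with edgeR adjusted p-values of 0.585 and 0.388.

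**Figure D3:**
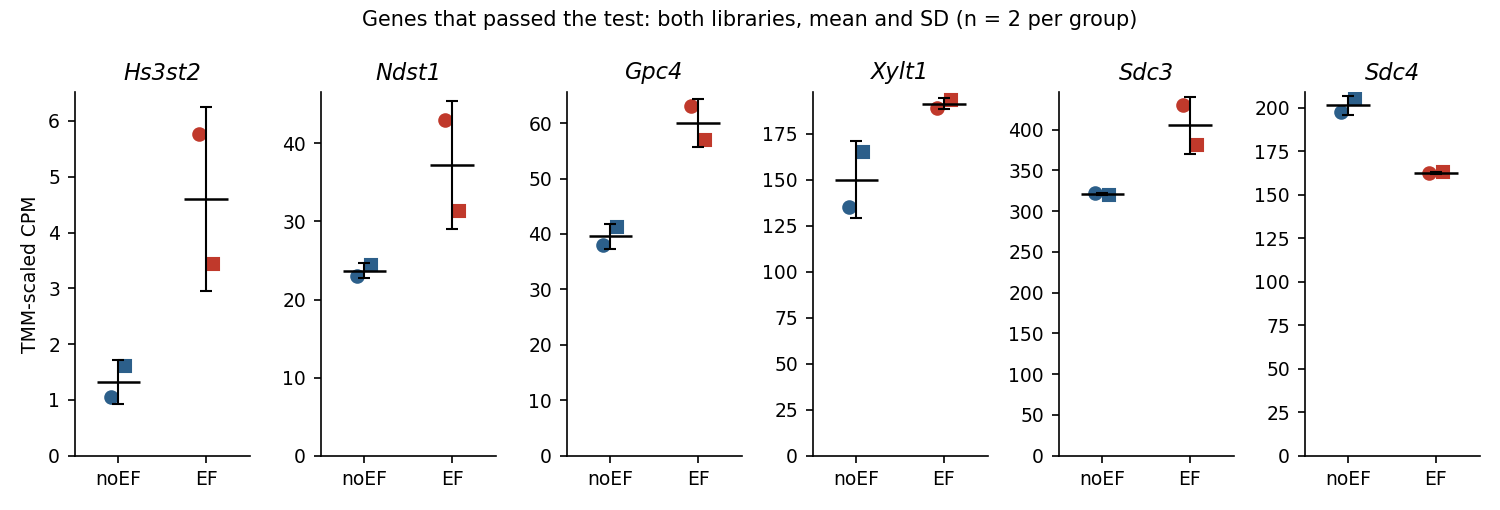
CPM of the 6 genes that passed the test in each library, noEF in blue and EF in red, circles for replicate 1 and squares for replicate 2, with the group mean (line) and SD (bars, n = 2 per group) on axes that start at 0. Hs3st2 and Ndst1 have their widest spread within EF, at 5.77 and 3.44 and at 43.0 and 31.4 CPM, and Sdc4 is the gene with EF below noEF.

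A wider list of 75 other genes of the same pathways was read from the same fit (1 matched by an older symbol). By edgeR, 3 of its 61 tested genes (4.92%) were called higher and 0 lower, where all tested genes gave 3.83% and 4.99%. At an unadjusted p under 0.05 there were 13 of the 61, and the list median was 0.04. DESeq2's Wald test also called 0 lower and limma-voom 0 lower. The higher genes were Ptn, Ogn and Hapln4. Ogn, the small leucine-rich protein osteoglycin, had 5.74 and 4.64 against 2.24 and 2.44 CPM (log2 fold change 1.15, SE 0.31, edgeR adjusted p = 0.0323), and it missed the threshold by DESeq2 (adjusted p = 0.0527), without EF 1 (0.231) and without noEF 1 (0.0869). Hapln4, the link protein of brevican in perineuronal nets, had 4.03 and 6.22 against 1.91 and 2.17 CPM (log2 fold change 1.33, SE 0.34, edgeR adjusted p = 0.0247). Without EF 2 it was at 0.98 and missed the threshold (edgeR adjusted p = 0.198).

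By role, none of the 12 tested genes for linker enzymes and precursor supply passed, beside 8.82% called among all tested genes. In 12 genes, 0 calls cannot be told apart from that share. These genes included Fam20b, the xylose kinase, and the linker galactosyltransferase gene B3galt6 at 0.16 and 0.41 on the log2 scale. Papss2, which makes the sulfate donor, was low, with 22 and 15 counts in EF and 56 and 72 in noEF (log2 fold change -1.88, SE 0.60, edgeR adjusted p = 0.0657), whereas the main donor synthase gene Papss1 was at 208 CPM in both EF libraries and at 197 and 196 CPM in noEF. Of 12 tested breakdown enzymes none passed, which again cannot be told apart from the share over all tested genes. Their log2 fold changes ran from -0.50 for Idua, the lysosomal iduronidase gene, to 0.20 for Sgsh. Among other core proteins, the hyaluronan receptor gene Cd44 was at 110 and 119 against 138 and 140 CPM (log2 fold change -0.28, SE 0.09, edgeR adjusted p = 0.0573). The progenitor proteoglycan gene Cspg4 was at 0.08 and the basement membrane genes Agrn and Hspg2 at 0.20 and 0.36. None of them was called in the reported fit. With no filter Cd44, Papss2, Prelp and Idua were called lower. Cd44 and Papss2 were also called lower with a filter of 1 CPM in 2 libraries, and Cd44 with the length and GC trend removed. Agrn was called higher with library totals. The receptor genes Ptprs and Ptprf, whose products bind the chains on axons, were at 0.08 and 0.14 (edgeR adjusted p = 0.607 and 0.330).

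**Figure D4:**
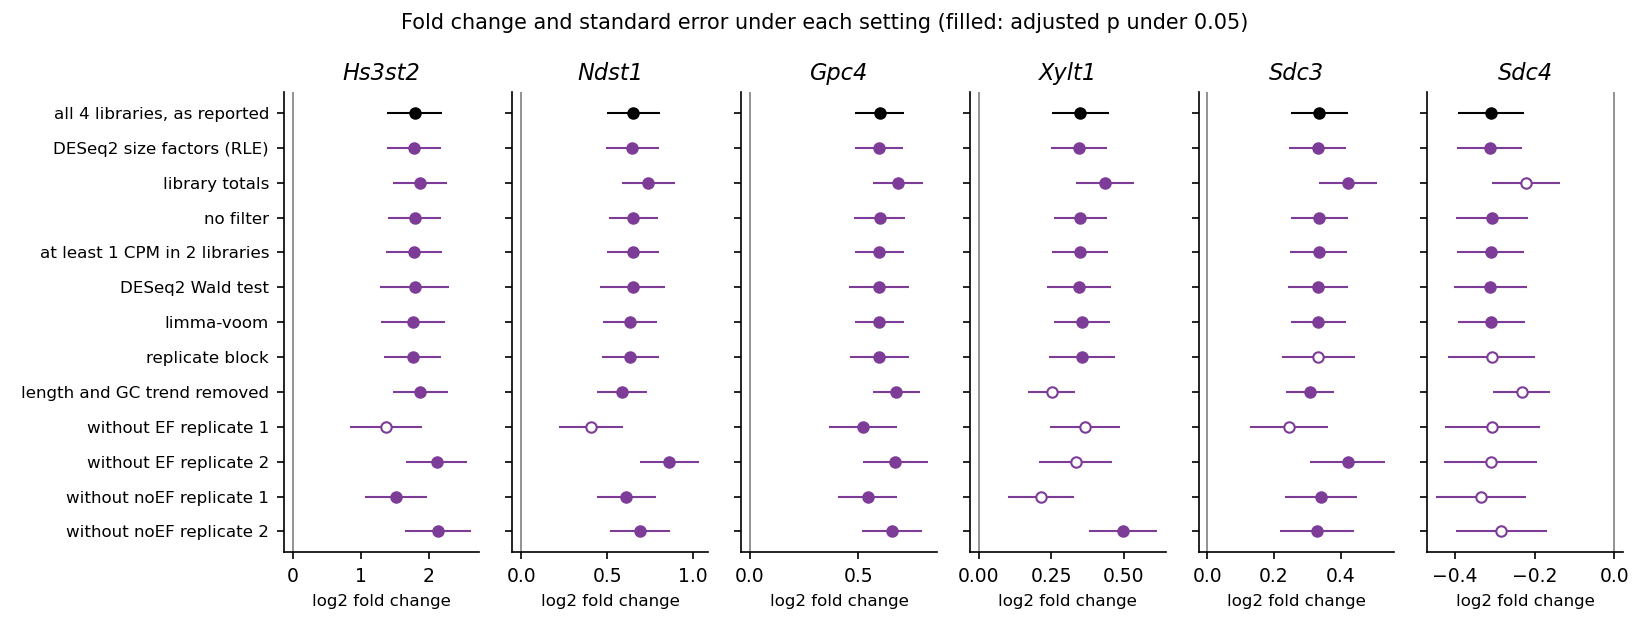
Log2 fold change (x axis, EF minus noEF) and standard error of the 6 called genes under the reported fit (black, top) and 12 alternatives (purple), with filled symbols where the adjusted p was under 0.05. Gpc4 is filled in every line, Hs3st2 and Ndst1 in all but the fit without EF replicate 1, and Sdc4 in 5 of the 12 alternatives.

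Several of the genes are neighbours in the genome. Gpc3, Gpc4 and Hs6st2 lie in a row on chromosome X, with 107 kb between Gpc4 and Gpc3 and 371 kb between Hs6st2 and Gpc4. Their log2 fold changes were 1.51, 0.60 and 0.55, all above 0 and 1 of them called. The table's genes between Hs6st2 and Gpc4, Usp26 and 1700080O16Rik, had no counts in any library. Gpc5 and Gpc6 are 400.1 kb apart on chromosome 14 (0.12 and 0.26), and Hapln1 and Vcan 43.7 kb apart on chromosome 13 (1.01 and -0.05).

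Promoter windows from RefSeq (GRCm38.p6, 250 bases before to 50 after the annotated start) were found for 29 of the 42 genes, and the first listed window was taken where a gene had several. Their median GC content was 66.3%, against 56.3% for all 17491 protein-coding genes with a window. The GC box letters GGGCGG, on either strand, were in 25 of the 29 windows (86.2%) and in 46.3% of protein-coding windows. CCAAT was in 11 (37.9% against 39.0%), CACGTG in 2 (6.90% against 7.90%), TATAAA in 4 (13.8% against 13.3%) and TGACTCA in 0 (4.58% of protein-coding windows). These are matches of letters, not binding sites, and each motif was searched on its own, so that matches of different motifs may overlap. Of the called genes, Xylt1 and Ndst1 had no window. The Gpc4 window starts inside an annotated exon, so no bases of it are shown. The stretches before the RefSeq start are shown for the remaining called genes. These are the syndecan pair that moved in opposite directions and Hs3st2, the gene with the largest called rise. Each is written 5′ to 3′ on the gene's strand, limited to bases outside annotated exons, and capitals mark GGGCGG or its complement. They are chr4:130792287-130792536 on the plus strand for Sdc3, chr2:164443189-164443438 on the minus strand for Sdc4 and chr7:121392046-121392289 on the plus strand for Hs3st2. The RefSeq starts of Sdc4 and Hs3st2 lie inside the GENCODE gene spans given above, downstream of the GENCODE gene start, so these stretches fall within the annotated genes and outside their exons.
Sdc3: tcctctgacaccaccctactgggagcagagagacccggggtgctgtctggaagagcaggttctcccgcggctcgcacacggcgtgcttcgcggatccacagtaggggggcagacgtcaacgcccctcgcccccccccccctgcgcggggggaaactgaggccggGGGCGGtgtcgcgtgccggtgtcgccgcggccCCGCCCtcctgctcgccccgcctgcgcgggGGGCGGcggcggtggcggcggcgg
Sdc4: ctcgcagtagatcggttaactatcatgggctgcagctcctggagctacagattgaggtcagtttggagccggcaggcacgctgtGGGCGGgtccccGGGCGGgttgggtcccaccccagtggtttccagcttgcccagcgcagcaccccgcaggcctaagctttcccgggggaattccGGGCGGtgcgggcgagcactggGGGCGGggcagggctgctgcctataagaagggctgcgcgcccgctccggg
Hs3st2: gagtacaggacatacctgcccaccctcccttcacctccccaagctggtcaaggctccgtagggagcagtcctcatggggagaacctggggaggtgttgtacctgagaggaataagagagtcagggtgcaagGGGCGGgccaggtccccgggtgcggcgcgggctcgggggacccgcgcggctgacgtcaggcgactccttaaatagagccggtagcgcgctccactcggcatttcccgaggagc
The Sdc3 stretch holds 3 copies of the GC box, the Sdc4 stretch 4 and the Hs3st2 stretch 1, and none of the 3 holds any of the other motifs searched. The syndecan genes that changed in opposite directions thus both carry several GC boxes in this window, with a GC content of 76.4% for Sdc3 and 68.0% for Sdc4.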

How the data were processed

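Polyadenylated RNA was fragmented, copied with random hexamers and amplified by PCR, per the labels' protocols, which describe no step that keeps strand. The authors deposited whole-number counts per gene, not scaled. Per the submitters' processing notes, HISAT2 2.0.4, StringTie 2.2.1, DESeq2 1.44.0 and GRCm38 were used. How reads were counted, and with which annotation, no source used here says. Columns were matched to samples by library name.

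Counts were tested over the whole table with edgeR 4.0.16 in R 4.3.3: filterByExpr (minimum count 10, minimum total 15), TMM scaling and a robust quasi-likelihood fit on group, with Benjamini-Hochberg adjustment over 14263 genes and a threshold of 0.05. Standard errors were derived from each log2 fold change and its F statistic. The fit was tested on simulated data: it held its false call rate when the spread followed the trend, and exceeded it when each gene had its own spread. Alternatives were RLE or total scaling, other filters, DESeq2 1.42.0, limma-voom (limma 3.58.1), a replicate block, removal of each library's length and GC trend (splines with 5 degrees of freedom) and leaving out each library. Exon lengths, GC content and positions came from GENCODE M21 (GRCm38), and exon overlaps from bedtools 2.31.1. The members and lists were chosen with earlier results of these data known. Named genes are every called member, the highest member per kilobase of each role, members completing a family, and the called genes of the wider list. Some uncalled genes of the wider list were also named outside this rule, several of them with an adjusted p near the threshold.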

Additional observations from a re-analysis of the deposited data

How the results depend on the processing

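The count of the 42 genes that were higher in EF moved from 5 to 10 with library totals and to 9 with no filter on low counts, and ran from 1 (without EF 1) to 9 (without noEF 2) when 1 library was left out. The count of lower genes moved from 1 to 0 with library totals, with the replicate block and with the length and GC trend removed, and was 0 in each fit that left out 1 library. Over all genes, 546 were higher and 712 lower. Library totals gave 1138 higher and 505 lower (69.3% of calls higher, against 43.4%) and moved the median of all genes by 0.086. No filter gave 915 and 1203, and leaving out 1 library gave 217 to 790 higher and 337 to 1065 lower. In the wider list, 3 higher genes became 5 with library totals and 1 to 3 with 1 library left out, and 0 lower genes became 4 with no filter, 2 with a filter of 1 CPM in 2 libraries, 1 with the length and GC trend removed and 0 to 1 with 1 library left out.

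Among the log2 fold changes of single genes under the alternatives, 452 kept their direction and their side of the threshold, 23 lost a call, 18 gained one and 19 changed sign, all of the last in genes that had not passed. With library totals Vcan was at 0.040, Cspg5 at 0.075 and Hs6st1 at 0.025. With the length and GC trend removed Sdc2 was at -0.028, Hs3st3b1 at -0.0047, Sulf2 at -0.0022 and Chst15 at -0.038. With 1 library left out the values ran from -0.15 to 0.066 for Vcan, -0.045 to 0.022 for Cspg5, -0.056 to 0.33 for Gpc5, -6.3e-05 to 0.47 for Gpc6, -0.079 to 0.11 for Sdc2, -0.13 to 0.16 for Ndst2, -0.10 to 0.39 for Glce, -0.19 to 0.85 for Hs3st1, -0.023 to 0.047 for Chsy1 and -0.010 to 0.075 for Chst15. The cause of these shifts was not tested. Same-numbered libraries share only a number: their deviations from the group means had a correlation of -0.09 over 14263 genes, and the replicate block gave 410 higher and 568 lower genes. DESeq2 gave no adjusted p for Gpc3, Bgn, Hs3st1 and Hapln1. Genes under about 2 CPM (Gpc3, Bgn, Hs3st1, Hapln1) rest on 11 to 87 counts per library, so only large differences could have been detected there.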

Other observations

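Some genes of the wider list had counts in 1 library only. Hapln2, a link protein of myelinated axons, had 11 counts in EF 1 and 0 elsewhere, and Hpse, the heparanase gene, had 10 counts in EF 1 and 0 elsewhere. Both were too low to be tested. In addition, 7 of the wider list's genes, such as Ndst3, Ndst4, Spock3 and Has1, had no counts in any library.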
